A study of Mus musculus with 12 samples.

Results

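Bleomycin and lipopolysaccharide (LPS) given to mice left lungs in which 8361 of the 14524 genes tested differed from saline lung, and this comparison of untreated AE-PF lung with saline lung is described here. AE-PF stands for acute exacerbation of pulmonary fibrosis, the sudden worsening of a lung that is already scarred. Bleomycin is a drug that injures the lung and leaves a scar, and LPS is a bacterial wall component that provokes inflammation. All samples were whole lung tissue from Mus musculus, taken when the model ended. The saline group held 4 samples and the AE-PF group 4 samples, and these 8 are part of a series of 12, whose other 4 received a drug-loaded liposome after the same challenge and enter no comparison here. The sources used here give no strain, age, genotype, dose or time. Nothing in the labels says that the 4 samples of a group came from separate animals, so p-values measure the spread between these samples, which may in part be technical.

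As background, an injured alveolus is normally closed again by type 2 cells, which make surfactant and renew the thin type 1 cells that exchange gas. In fibrosis, fibroblasts lay down collagen, elastin and fibronectin, and monocytes that enter from the blood become macrophages that clear debris and signal to the fibroblasts. An exacerbation adds an acute wave of inflammation to that scar.

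The table gives FPKM, the number of sequenced fragments scaled by the length of the gene and by the depth of the library. FPKM totals still differed between the groups, 298097 to 311852 in saline and 273123 to 279287 in AE-PF. Levels therefore compare only approximately between samples. A gene was tested where FPKM reached 1 in at least 4 of the 8 libraries, which 12406 genes did in all 8. A log2 change is the difference of mean log2(FPKM + 1), AE-PF minus saline, and is given with its standard error. "Higher" and "lower" mean an adjusted p under 0.05 in limma (Benjamini-Hochberg over all 14524 genes). Where 4 values are listed for a group they are libraries 1 to 4 in order, in FPKM. A level written as 1 value with ± is the mean FPKM and SD of a group (n = 4).

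Of the tested genes, 3931 (27.1%) were higher in AE-PF lung and 4430 (30.5%) were lower, together 57.6%. These shares are the background against which each gene list below is read. Changes of at least 2-fold were found for 741 genes upward (5.1%) and 755 downward (5.2%), together 1496 (10.3%). The median change was 0.474 log2 among the higher genes and -0.508 among the lower ones. At least 8-fold changes numbered 59 upward and 29 downward. The 4 AE-PF values lay entirely above the 4 saline values for 3765 genes (25.9%) and entirely below them for 4262 (29.3%). After scaling the libraries to equal FPKM totals, 63.4% of the called genes were higher instead of 47.0%, and the median of all genes moved from -0.025 to 0.087 log2. Small changes are read against that shift.

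**Figure D1:**
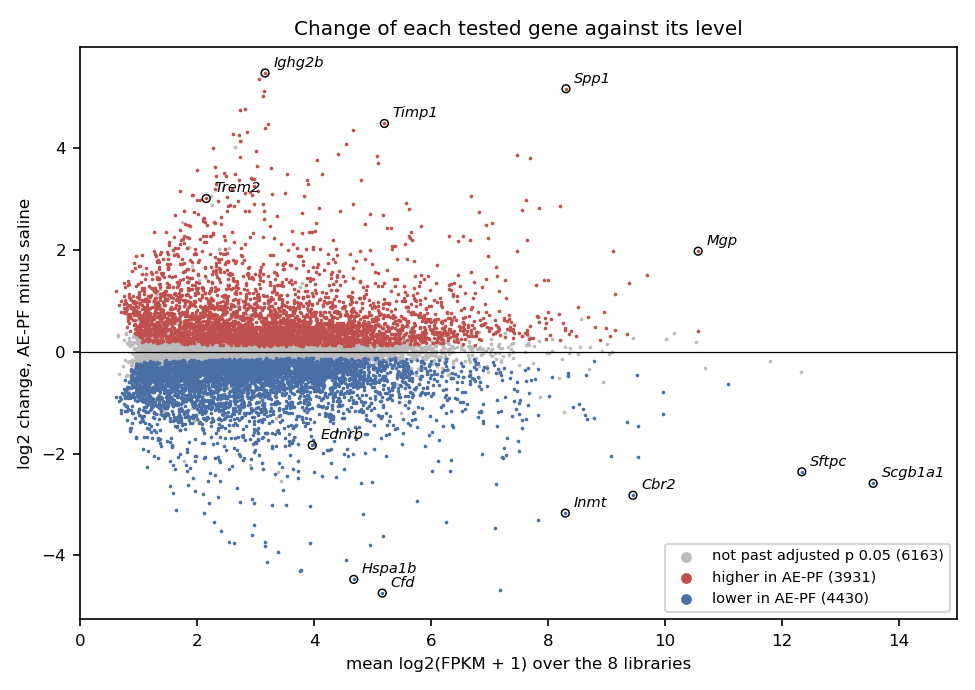
Each point is 1 of 14524 tested genes, with its mean log2(FPKM + 1) over the 8 libraries on the horizontal axis and its log2 change, AE-PF minus saline, on the vertical axis. Red genes were higher (3931), blue genes lower (4430) and grey genes did not pass, and the most abundant transcript of saline lung, Scgb1a1, lies at the far right among the lower genes.

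The filter itself fixes some calls. Through the AE-PF libraries alone 293 genes passed it and through the saline libraries alone 311, and 598 of these were called, as such genes had to differ. Among the other 13920 genes, 3641 were higher and 4122 lower (55.8%). Exactly 4 libraries at FPKM 1 were reached by 795 genes, among them Arg1 and Adam12. Just outside, with 3 libraries, lay 466 genes, among them Cxcl9 and Lrrc15. The 64 gene lists used below hold 1284 genes, of which 1281 are in the table and 1143 were tested, 56 of them having passed through 1 group alone.

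Library depth was 16353968 to 21667129 fragments in saline and 16923716 to 18099126 in AE-PF. The first principal component (75.3% of the variance) set the groups apart, with saline at -44.1 to -39 and AE-PF libraries 1 to 4 at 52.5, 53.3, 30.7 and 28.2. AE-PF library 2 stood apart from the other AE-PF libraries. It held Krt13, a keratin of stratified lining epithelium, at an FPKM of 899, against at most 0.235 in the other 7 libraries, and it was the most extreme AE-PF library for 41.5% of the higher and 49.2% of the lower genes. Results that rest on it are given with and without it. The defining genes of lung epithelium were abundant in all 8 libraries, as the levels of Sftpc, Scgb1a1 and Ager below show. The 10 most abundant genes took 19.4 to 23.1% of all FPKM in saline lung and 9.24 to 10.4% in AE-PF lung.

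**Figure D2:**
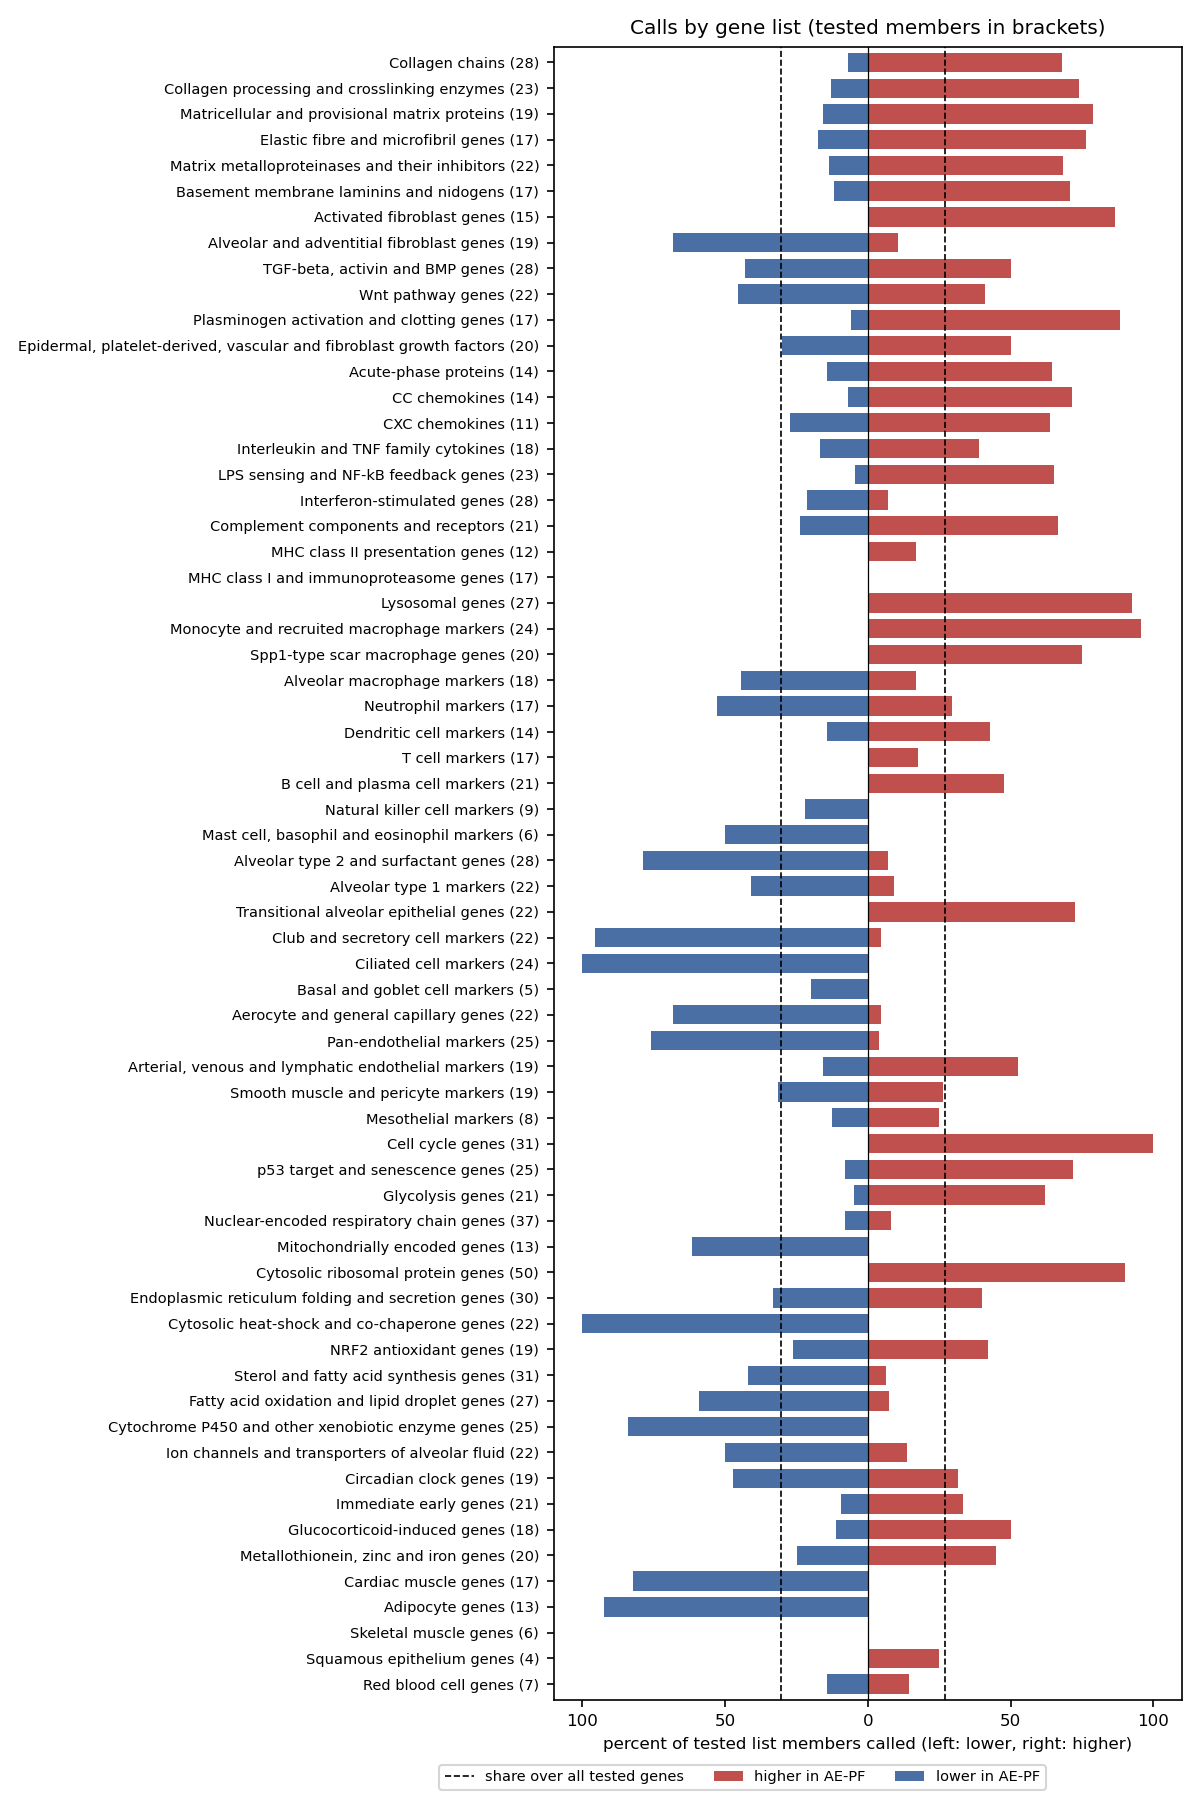
Bars give the percent of each list's tested members that were higher (right, red) or lower (left, blue), with the number of tested members in brackets, and dashed lines mark the shares over all tested genes, 27.1% and 30.5%. Lysosomal, recruited macrophage, cell cycle and ribosomal lists lie almost wholly to the right, and heat-shock, ciliated, club cell and cytochrome P450 lists to the left.

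Collagen chains were higher for 19 of the 28 tested, against 27.1% of all genes, and lower for 2, with a median change of 1.3 log2. Their summed FPKM was 758 to 916 in saline and 2346 to 3564 in AE-PF libraries. Col3a1, a fibrillar collagen of early scars, stood at 105, 98.3, 88.5 and 80.4 in saline and 526, 529, 349 and 351 in AE-PF lung. Col5a2, which helps to set fibril diameter, was 16.4 to 18.8 in saline and 88.9 to 203 in AE-PF (2.81 ± 0.24 log2, adjusted p = 4.06e-05). For both genes every AE-PF library exceeded every saline library, and libraries 1 and 2 exceeded libraries 3 and 4. The basement membrane chains moved apart. Col4a1, part of every vascular basement membrane, rose (130.4 to 161 in saline and 358 to 457 in AE-PF), Col4a6 fell (4.93 to 6.44 in saline and 1.53 to 2.99 in AE-PF), and Col4a3, of the alveolar basement membrane, did not pass (20.6 to 25.5 in saline and 15.7 to 32.4 in AE-PF; 0.18 ± 0.21 log2, or 0.41 with an adjusted p of 0.00542 without AE-PF library 2).

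Among the enzymes that process collagen, 17 of 23 were higher and 3 lower. The prolyl 4-hydroxylases, which stabilise the triple helix, did not move together. P4ha3 stood at 0.574, 0.688, 0.443 and 0.351 in saline and 20.4, 22, 11.2 and 11.9 in AE-PF lung (3.46 ± 0.22 log2). It passed the filter through AE-PF lung alone and so had to differ. P4ha1 fell, 47.9, 48.6, 63.2 and 58.9 in saline and 19.2, 19.6, 26 and 24.8 in AE-PF lung, and P4ha2 fell too (14.9 to 17.4 in saline and 8.63 to 10.2 in AE-PF). P4ha3, the least abundant of the 3 alpha subunits in saline lung, exceeded P4ha2 in every AE-PF library. Fkbp10, a prolyl isomerase for collagen, rose to 31.6 ± 8.88, whereas Pcolce2, an enhancer of procollagen cleavage, fell from 76.5 ± 4.46 to 12.7 ± 4.7. Serpinh1, the collagen chaperone HSP47, did not pass (252 to 278 in saline and 231 to 287 in AE-PF).

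Matricellular proteins and the provisional matrix rose for 15 of 19 tested members and fell for 3 (median 1.71 log2). Spp1, at chr5:104435118-104441050 on the plus strand of GRCm38, encodes osteopontin and was 46.7, 49.2, 55.4 and 56.5 in saline and 2776, 2546, 1413 and 1309.6 in AE-PF lung. That is 5.17 ± 0.25 on the log2 scale (adjusted p = 4.14e-06), and the AE-PF libraries fell into a higher pair (1 and 2) and a lower pair (3 and 4). Fn1, fibronectin, showed the same order, 48.2, 43.2, 44.4 and 45.8 in saline and 879, 873, 525 and 518 in AE-PF lung. Tnc, tenascin-C, a protein of healing wounds, was 4.45, 4.03, 4.44 and 5.92 in saline and 108, 119.8, 82.5 and 77 in AE-PF lung (4.08 ± 0.16 log2). Tnxb, tenascin-X, a component of mature connective tissue, went the other way with very little spread, 18.4, 16.6, 17.3 and 16.9 in saline and 3.79, 4.0, 4.09 and 4.51 in AE-PF lung (-1.84 ± 0.06 log2, adjusted p = 1.22e-06). Ccn3 and Thbs3 were the other members that fell, to 3.43 ± 0.727 and 8.34 ± 1.14. Elastic fibre genes were higher for 13 of 17 and lower for 3. Eln, elastin, rose from 86 ± 16.3 to 650.5 ± 267, while Ltbp4, a binding protein needed to assemble elastin, fell from 138 ± 13.5 to 60.4 ± 1.78 and Ltbp2 rose from 23 ± 4.27 to 109 ± 12.7. 

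Proteases and their inhibitors were higher for 15 of 22 and lower for 3, 4 members having passed the filter through 1 group alone. Timp1, which inhibits matrix metalloproteinases and lies at chrX:20870166-20874735, stood at 6.5, 6.93, 7.48 and 6.2 in saline and 226, 201, 132 and 150.1 in AE-PF lung (4.49 ± 0.16 log2, adjusted p = 1.56e-06). Timp3, another inhibitor, was near level, 78.9, 79.3, 81.1 and 87.7 in saline and 82.2, 77.1, 80.0 and 86.4 in AE-PF lung (-0.01 ± 0.06 log2). Mmp14, a membrane collagenase, rose from 15.5 ± 1.19 to 88.7 ± 17.1. Mmp9, a gelatinase stored in neutrophils, fell from 11.5 ± 2.45 to 4.4 ± 0.168, and Mmp15 fell from 35.3 ± 2.8 to 9.5 ± 4.97. Clotting and plasminogen genes were higher for 15 of 17. Thbd, the thrombomodulin of capillary walls, was the 1 member that fell, 296, 326, 312 and 307 in saline and 94.7, 85.7, 162 and 173 in AE-PF lung.

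Fibroblast genes split by type. Of 15 tested genes of activated fibroblasts 13 were higher (median 2.2 log2), and of 19 genes of alveolar and adventitial fibroblasts 2 were higher and 13 lower (median -0.88 log2). The largest change in the activated list, 5.17 log2, equals that given above for Spp1. Lists can share members, so this count may not be separate from the matrix and macrophage counts. Sfrp1, a secreted Wnt antagonist found in activated fibroblasts, rose, 9.84, 7.76, 8.66 and 7.71 in saline and 168, 139, 105 and 91.8 in AE-PF lung. Inmt, a methyltransferase abundant in alveolar fibroblasts, fell, 922, 962, 1028 and 867 in saline and 63.9, 92.1, 161 and 123 in AE-PF lung (-3.17 ± 0.25 log2). Gsn, gelsolin, fell from 1521 ± 81.6 to 364 ± 25.5. Acta2, the smooth muscle actin used as a myofibroblast marker, did not pass, 206, 196, 167 and 210.0 in saline and 218, 348, 146 and 189 in AE-PF lung, its highest value being AE-PF library 2. Dcn and Dpt, matrix proteins of resting fibroblasts, did not pass (0.02 ± 0.18 and 0.07 ± 0.09 log2). In whole tissue such changes cannot tell fewer cells of a type from less RNA per cell.

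TGF-beta, activin and BMP genes changed in both directions. Of 28 members 14 were higher and 12 lower, where 27.1% and 30.5% of all genes were. Inhba, the activin A chain, rose to 8.52 ± 1.76 from 1.16 ± 0.589. Fst, its secreted inhibitor, rose too, 2.19, 1.48, 1.66 and 2.15 in saline and 25.2, 28.3, 15.3 and 15.7 in AE-PF lung. Tgfbr2, the TGF-beta receptor, rose from 45.4 ± 0.983 to 93.8 ± 9.63. The BMP ligand Bmp6 fell, 61.5, 69.7, 52.4 and 48.1 in saline and 13.9, 10.8, 14 and 16.4 in AE-PF lung (-1.99 ± 0.14 log2). Its receptor Bmpr2 fell from 38.6 ± 2.89 to 24.7 ± 1.46, the co-receptor Eng from 188 ± 18.3 to 73.4 ± 12.3 and the inhibitory Smad6 from 76.5 ± 15.4 to 17.9 ± 4.07. Groups did not overlap for these 7 genes (55.3% of all genes did not). They were named for their small p, so the lack of overlap is no separate result. Wnt genes were 9 higher and 10 lower of 22, and Axin2, a direct Wnt target, fell from 9.35 ± 0.454 to 4.29 ± 1.06.

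**Figure D3:**
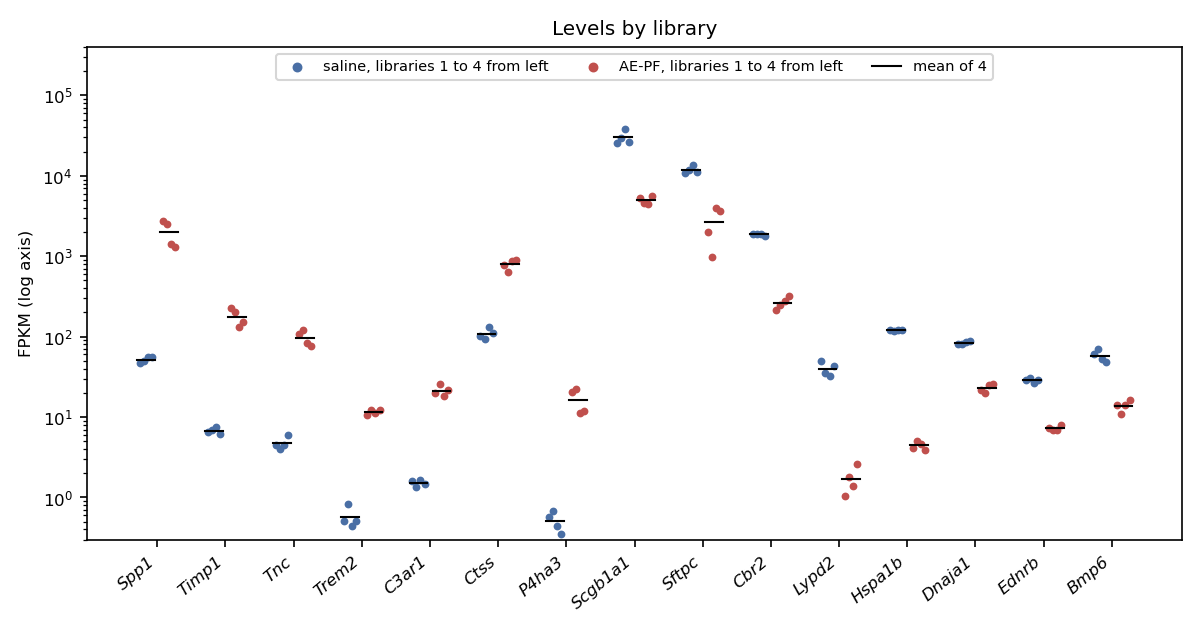
Points are FPKM on a log axis in saline libraries 1 to 4 (blue) and AE-PF libraries 1 to 4 (red), with black lines at group means, for 15 genes named in the text. The groups do not overlap in any of them, nor in 55.3% of all genes. These genes were named for small p or large changes, so that is no separate result. P4ha3 and Trem2 passed the filter through AE-PF lung alone and so had to differ. AE-PF values of Spp1, Timp1 and P4ha3 form a higher and a lower pair whereas those of Trem2 and Hspa1b lie close together.

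Most genes of recruited macrophages and of lysosomes rose. Of 24 monocyte and recruited macrophage markers 23 were higher (median 1.72 log2), and of 27 lysosomal genes 25 were higher (median 1.02 log2). Trem2, a lipid receptor of scar macrophages at chr17:48346401-48354147, stood at 0.513, 0.818, 0.441 and 0.507 in saline and 10.7, 12.2, 11.4 and 12.3 in AE-PF lung (3.01 ± 0.09 log2). It passed the filter through AE-PF lung alone and so had to differ, as did Ms4a7, a monocyte-derived macrophage marker, 0.905 ± 0.0642 and 9.73 ± 1.16. Trem2 did not show the separation into library pairs seen for Spp1. C3ar1, the receptor of the complement fragment C3a, rose to 21.4 ± 3.28 from 1.52 ± 0.138. Ctss, cathepsin S, was among the 10 largest FPKM gains, 101, 94.6, 131 and 110.2 in saline and 785, 631, 881 and 901 in AE-PF lung. Ms4a4c was the 1 marker of recruited cells that did not pass, 3.85, 3.88, 4.67 and 4.68 in saline and 1.85, 1.33, 4.42 and 5.55 in AE-PF lung. Genes of resident alveolar macrophages were lower for 8 of 18 and higher for 3, where 30.5% and 27.1% of all genes were. Of these 18, 2 passed the filter through 1 group alone and so had to differ. Fabp1, a fatty acid binding protein of these cells, stood at 6.26, 7.81, 10.4 and 8.4 in saline and 0.106, 0, 0 and 0.0999 in AE-PF lung. It passed the filter through saline lung alone and so had to differ. Ear1, a ribonuclease, fell from 14.8 ± 2.54 to 2.65 ± 0.581. Atp6v0d2, a proton pump subunit, rose from 12.8 ± 2.03 to 34.6 ± 10.1, and Chil3 did not pass, 272, 254, 396 and 307 in saline and 945, 727, 305 and 239.8 in AE-PF lung.

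Complement genes were higher for 14 of 21 and lower for 5, or 3 at equal FPKM totals. The 3 chains of C1q, which starts the classical pathway, rose together. C1qa stood at 49.8, 43, 39 and 39.7 in saline and 280.4, 352, 274 and 277 in AE-PF lung. Hc, which encodes complement C5 and is also a type 2 cell gene, fell, 115, 129, 145 and 118 in saline and 8.37, 1.69, 21.6 and 19.3 in AE-PF lung, with the lowest value in AE-PF library 2. Cfd, factor D, an adipocyte product, fell from 220.3 ± 139.8 to 7.83 ± 6.66. Adipocyte genes fell with it: 12 of 13 tested were lower, 3 members having passed the filter through 1 group alone, so that these had to differ. The sum of the list was 163 to 859 in saline and 13.9 to 48.8 in AE-PF libraries. Cardiac muscle genes, which the pulmonary vein walls of mice express, summed to 419.8 to 734 and 52.6 to 137. The part of differing dissection in the falls of Cfd, Myh6 (65.6 to 125 in saline and 2.78 to 8.16 in AE-PF) and Car3 (81.3 ± 67.9 and 2.7 ± 2.73) was not tested.

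Inflammatory ligands and their feedback genes rose in part. Saa3, an acute-phase protein made in tissues, stood at 0.407, 0.248, 0.228 and 0.328 in saline and 37.7, 101, 45.1 and 43 in AE-PF lung (5.35 ± 0.28 log2), highest in AE-PF library 2. It passed the filter through AE-PF lung alone and so had to differ. Ccl2 and Ccl8, which draw monocytes, reached 23.9 ± 8.32 and 61.2 ± 21.1. Cxcl13, a B cell attractant, stood at 3.37, 3.85, 2.76 and 4.2 in saline and 71.5, 124, 34.1 and 43.1 in AE-PF lung. CC chemokines were higher for 10 of 14 and CXC chemokines for 7 of 11, with 1 and 3 lower. Cxcl15, a chemokine of the airway epithelium, fell from 644 ± 53.7 to 276 ± 113, Il33, an alarmin of the epithelium, from 46.8 ± 5.45 to 14.2 ± 5.69, and Ppbp, a platelet chemokine, from 15.4 ± 7.64 to 3.57 ± 1.61. Il1b did not pass, with 19.2 ± 6.94 in saline and 12.7 ± 7.34 in AE-PF lung. Among 23 LPS-sensing and NF-kB feedback genes 15 were higher and 1 lower. Tlr2, a receptor for bacterial lipopeptide, rose from 9.43 ± 2.48 to 31 ± 7.97, but Rela, the NF-kB subunit, was the 1 lower member, 35.9 to 37.5 in saline and 28.9 to 31.8 in AE-PF. Neutrophil markers were higher for 5 of 17 (29.4%), near the 27.1% of all genes, and lower for 9 (52.9%), against 30.5%. Among the higher ones is Lcn2, which is also on the type 2 list below. Cd177 rose from 9.7 ± 8.92 to 92.2 ± 30.8, and Ngp and Camp, granule genes, fell to 3.3 ± 1.78 and 1.16 ± 0.568.

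Counts of interferon-stimulated and antigen presentation genes moved with single libraries. Of 28 interferon-stimulated genes 2 were higher and 6 lower; without AE-PF library 2 the counts were 7 and 4, without AE-PF library 1 they were 2 and 3, and at equal FPKM totals 4 and 3. Of 12 genes of MHC class II presentation 2 were higher, Ctss and Ifi30, which do not encode class II chains, and 8 were without AE-PF library 2. Cd74, the invariant chain, stood at 515, 500.0, 467 and 462 in saline and 513, 171, 1028 and 965 in AE-PF lung, so libraries 3 and 4 lay above saline and library 2 below it. It passed without library 2 (0.72 log2, adjusted p = 0.0279). MHC class I genes gave no call in either direction of 17 (limma; 1 at an unadjusted p under 0.05 and 0 by limma-voom), and 3 were higher without that library. B2m was 955, 931, 1016 and 1119 in saline and 1168, 839, 1671 and 1689.9 in AE-PF lung. It passed without library 2 (0.57 log2, adjusted p = 0.0142). T cell markers were higher for 3 of 17, for 11 without library 2 and for 5 at equal FPKM totals. With all libraries the 3 were checkpoint receptors that passed the filter through AE-PF lung alone and so had to differ, among them Ctla4, 0.357, 0.324, 0.341 and 0.236 in saline and 3.91, 2.33, 5.66 and 4.72 in AE-PF lung. The B cell and plasma cell list was higher for 10 of 21 and for 6 with limma-voom, 3 members having passed the filter through 1 group alone, and 4 were lower without AE-PF library 3. Antibody genes rose with large differences between libraries: Ighg2b stood at 0.31, 0.201, 0.185 and 0.708 in saline and 600.0, 377, 7.92 and 5.26 in AE-PF lung, Ighg2c at 0.557, 0.285, 0.224 and 1.01 in saline and 77.4, 29.3, 99.9 and 30.3 in AE-PF lung and Igkc at 59.4, 35.1, 58.7 and 72.3 in saline and 2065, 1620.0, 416 and 259 in AE-PF lung. Ighg2b is thus high in libraries 1 and 2, whereas Ighg2c is highest in library 3. Among 86 tested antibody variable genes 67 were higher. Those that passed the filter through AE-PF lung alone had to differ, and their number was not counted. Ighg2b, which passed the filter through AE-PF lung alone and so had to differ, was at 5.48 ± 1.48 log2 in limma and at 7.51 in limma-voom, where its call was lost (adjusted p = 0.179). Multi-mapping between such near-identical genes makes single values uncertain.

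Surfactant genes fell in the alveolar epithelium lists. Of 28 type 2 and surfactant genes 22 were lower (30.5% of all genes were) and 2 higher. Sftpc, surfactant protein C, at chr14:70520949-70524081, stood at 10792, 11879, 13515 and 11102 in saline and 2011, 969, 3945 and 3616 in AE-PF lung (-2.36 ± 0.43 log2, adjusted p = 0.00188). AE-PF library 2 was lowest and libraries 3 and 4 highest, and with no filter the adjusted p was 0.137. Sftpa1 fell from 1107 ± 117 to 277 ± 93.1, and Slc34a2, the phosphate carrier of these cells, from 357 ± 32.9 to 99.9 ± 44. The exceptions were Lcn2, an iron-binding defence protein, 21.8, 19.6, 29.5 and 17.8 in saline and 61.6, 75.7, 90.5 and 97.1 in AE-PF lung, and the cathepsin Ctsh, 52, 55.3, 66.1 and 54.6 in saline and 161, 118, 148 and 139.8 in AE-PF lung. Lyz2, shared with macrophages, did not pass, 3531, 3599, 4465 and 3661 in saline and 3192, 2078, 4509 and 4269 in AE-PF lung. Type 1 markers were lower for 9 of 22 and higher for 2, or 7 higher and 10 lower without library 2. Hopx fell from 168 ± 13.3 to 85.2 ± 24.2, whereas Pdpn rose from 51.4 ± 3.91 to 101 ± 23.6, and Ager, the most abundant of them, did not pass, 524 to 666 in saline and 212 to 561 in AE-PF. Transitional genes, seen in type 2 cells on their way to type 1 but not only there, were higher for 16 of 22. The list shares Lcn2 with the neutrophil and type 2 lists and another member with a scar macrophage list. In whole tissue the count cannot be credited to type 2 cells. Cdkn1a, the p21 cell cycle inhibitor, was 22.8, 22.1, 25.6 and 26.1 in saline and 64.7, 68.8, 68.5 and 66.4 in AE-PF lung. Krt8, the keratin that names this state, did not pass, 153, 118, 118 and 162 in saline and 128, 96, 116 and 110.4 in AE-PF lung.

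Airway genes fell as well. Scgb1a1, secretoglobin of the club cells at chr19:9083636-9087958, stood at 25960.5, 29468, 38054 and 26648 in saline and 5230.1, 4570.1, 4417 and 5663 in AE-PF lung, and its share of all FPKM went from 8.67 to 12.2% to 1.62 to 2.07%. The call of Scgb1a1 (adjusted p = 9.28e-05) was lost with no filter, where the change stayed at -2.59 log2 (adjusted p = 0.482), and after quantile normalisation, where it was -0.37 (0.338). Cbr2, a club cell reductase, stood at 1878, 1901, 1909.9 and 1768 in saline and 217, 248, 276 and 322 in AE-PF lung (-2.82 ± 0.13 log2, adjusted p = 3.32e-06). In all, 21 of 22 genes of the club and secretory list were lower, and Retnla, resistin-like alpha, was the 1 that rose, 141, 130.4, 52.1 and 62.4 in saline and 454, 301, 253 and 439 in AE-PF lung. Among the lower members is Kdr, an endothelial receptor gene that is counted again in the capillary list below. Bpifa1 and Lypd2, of the larger airways, fell to 29.5 ± 13.6 and 1.71 ± 0.673. Bpifa1 varied widely in saline lung, 1738, 484, 216 and 1567 in saline and 23.4, 49.4, 18.8 and 26.3 in AE-PF lung. All 24 ciliated cell markers were lower, their median being -1.05 log2. Tppp3 stood at 159, 173, 171 and 165 in saline and 35.3, 34.9, 36 and 45.7 in AE-PF lung and Tekt1, a protein of the ciliary axoneme, at 11.3, 13.2, 10.6 and 11.4 in saline and 4.6, 4.47, 3.75 and 4.7 in AE-PF lung. Cytochrome P450 and other xenobiotic enzyme genes were lower for 21 of 25. Cyp1a1, inducible by aromatic compounds, fell from 25.8 ± 3.72 to 1.24 ± 0.523, and Cyp4b1 from 341 ± 24.5 to 58.5 ± 21.3.

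The endothelial lists did not move together. Pan-endothelial markers were lower for 19 of 25 and higher for 1, and capillary genes lower for 15 of 22 and higher for 1. Ednrb, the endothelin receptor of aerocytes at chr14:103814625-103844402, stood at 29, 30.3, 26.3 and 28.7 in saline and 7.24, 6.85, 6.99 and 8.06 in AE-PF lung (-1.84 ± 0.06 log2, adjusted p = 1.39e-06), with little spread. Tek, the angiopoietin receptor, fell from 105 ± 8.34 to 50.7 ± 3.6. Vwf, von Willebrand factor, was the exception, 39.8, 39, 40.9 and 29.4 in saline and 49.8, 52.8, 47.9 and 51.1 in AE-PF lung. Of 19 arterial, venous and lymphatic genes, pooled in 1 list, 10 were higher and 3 lower. Of the members, 3 had passed the filter through 1 group alone and so had to differ. Pdpn, counted above as a type 1 marker, is among the higher ones. Ackr1, a chemokine receptor of venules, rose from 0.605 ± 0.507 to 7.08 ± 3.56, and Dll4, an arterial and tip cell ligand, fell from 24.8 ± 2.59 to 9.43 ± 3.77. Without AE-PF library 2 the lower count was 6, and with quantile normalisation or limma-voom it was 5.

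**Figure D4:**
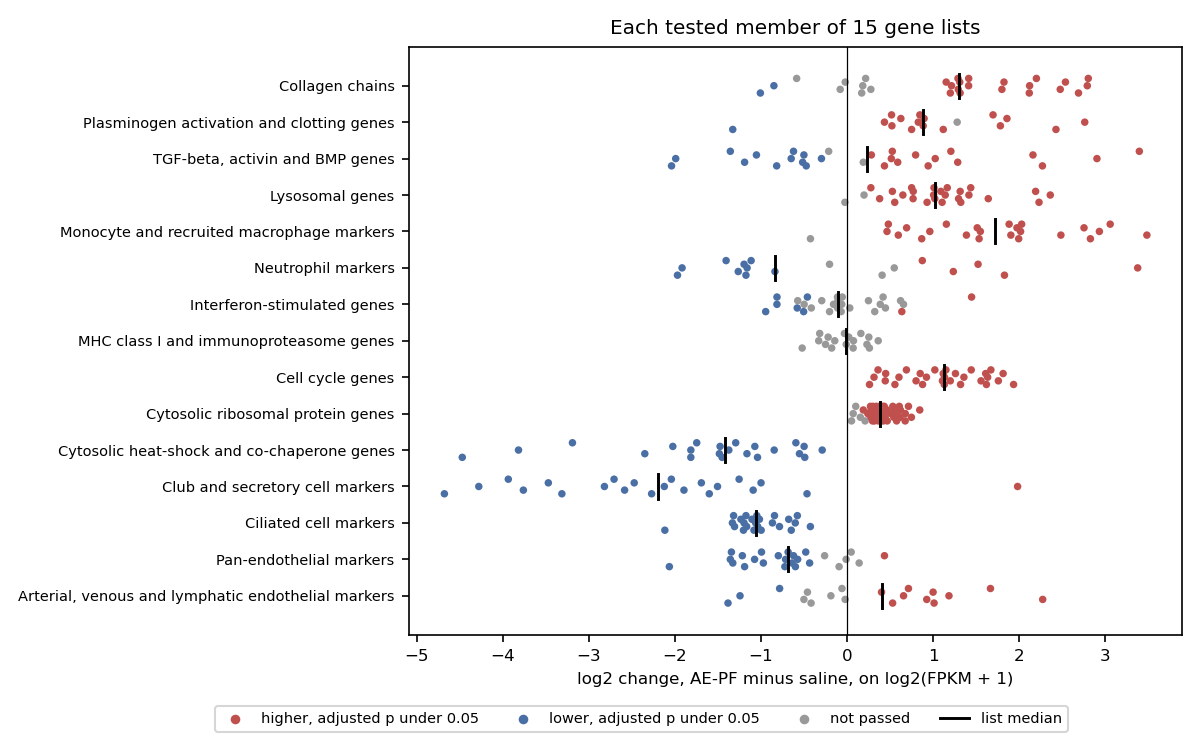
Each point is a tested member of 15 of the lists, placed by its log2 change (red higher, blue lower, grey not passed), and black ticks mark list medians. Ribosomal protein genes sit in a narrow band near 0.39 log2, heat-shock genes spread from -4.47 to -0.29, and Hspa1a and Hspa1b are the extreme members.

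Proliferation genes rose from a low level. All 31 tested cell cycle genes were higher (median 1.13 log2), 7 of them having passed the filter through 1 group alone, and with no filter 30 of 32 were. Under a filter of FPKM 5, 11 were. Cdk1, the mitotic kinase and 1 of those 7, stood at 0.655, 0.492, 0.603 and 0.459 in saline and 4.57, 3.12, 3.43 and 3.28 in AE-PF lung, and Rrm2, a subunit of ribonucleotide reductase, at 1.78, 1.87, 1.59 and 1.3 in saline and 8.08, 6.11, 7.42 and 8.08 in AE-PF lung. The p53 list was higher for 18 of 25 and lower for 2. Cdkn2a, which encodes p16 and p19, stood at 0.158, 0.184, 0.381 and 0.209 in saline and 2.86, 3.07, 2.87 and 2.69 in AE-PF lung, and Eda2r, a p53 target, at 0.799, 0.669, 0.64 and 0.706 in saline and 3.33, 3.98, 4.43 and 3.46 in AE-PF lung. These 2 passed the filter through AE-PF lung alone and so had to differ. Bbc3, a pro-apoptotic p53 target, fell (7.47 to 10.6 in saline and 4.9 to 6.4 in AE-PF). Ribosomal protein genes were higher for 45 of 50, with a median of 0.39 log2. Rps2 stood at 232, 224, 223 and 213 in saline and 390.1, 419, 354 and 344 in AE-PF lung, and Rps15 was 1 of 5 that did not pass, 359 to 493 in saline and 423 to 456 in AE-PF.

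RefSeq promoters of GRCm38.p6, 250 bases up to the start of transcription, were searched on both strands for CCAAT and for TTTGAA, short elements common in promoters of mitotic genes. Of 26 cell cycle genes with a promoter in the table, 22 (84.6%) held CCAAT, against 34.5% of 27025 promoters, and 9 (34.6%) held both, against 5.73%. A match is a description of the letters and not a site. The 2 shown carry both elements, in capitals on either strand, Ccnb2 at chr9:70421555-70421804 (minus strand) and Cdk1 at chr10:69352913-69353162 (minus strand).
Ccnb2: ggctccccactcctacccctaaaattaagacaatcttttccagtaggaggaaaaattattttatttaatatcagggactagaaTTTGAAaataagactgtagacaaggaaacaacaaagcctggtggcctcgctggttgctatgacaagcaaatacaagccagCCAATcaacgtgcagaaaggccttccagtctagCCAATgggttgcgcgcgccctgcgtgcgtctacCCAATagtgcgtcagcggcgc
Cdk1: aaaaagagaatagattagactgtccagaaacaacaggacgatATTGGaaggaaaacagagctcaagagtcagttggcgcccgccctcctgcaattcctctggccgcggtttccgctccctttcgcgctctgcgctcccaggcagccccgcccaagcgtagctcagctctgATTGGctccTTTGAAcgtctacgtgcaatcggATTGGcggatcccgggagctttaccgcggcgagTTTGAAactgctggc

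Heat-shock genes fell together. All 22 tested cytosolic heat-shock and co-chaperone genes were lower (20 at equal FPKM totals), and their sum went from 3343 to 3783 in saline to 1223 to 1368 in AE-PF. Hspa1b, at chr17:34956436-34959238 on the minus strand, encodes an inducible Hsp70 and stood at 121, 117, 121 and 119 in saline and 4.17, 5.09, 4.6 and 3.92 in AE-PF lung, a log2 change of -4.47 ± 0.07 (adjusted p = 9.36e-09). Hspa1a, its near-identical neighbour, stood at 33.3, 32.5, 29.7 and 34.2 in saline and 1.35, 1.36, 1.43 and 1.32 in AE-PF lung (-3.82 ± 0.05 log2). These 2 genes had the smallest p of all 14524, and the sources used here do not say how reads shared between the copies were assigned. Dnaja1, an Hsp40 partner, was 81.6, 80.0, 84.8 and 88.2 in saline and 21.6, 20.2, 24.9 and 26 in AE-PF lung. Heat-shock factor elements are built from inverted GAA units, and 6 of 17 of these genes with a promoter (35.3%) held GAANNTTC in the same 250 bases, against 6.78% of all promoters. The 2 examples are Hspa1b at chr17:34959239-34959488 (minus strand) and Dnaja1 at chr4:40722218-40722467 (plus strand), with the element in capitals.
Hspa1b: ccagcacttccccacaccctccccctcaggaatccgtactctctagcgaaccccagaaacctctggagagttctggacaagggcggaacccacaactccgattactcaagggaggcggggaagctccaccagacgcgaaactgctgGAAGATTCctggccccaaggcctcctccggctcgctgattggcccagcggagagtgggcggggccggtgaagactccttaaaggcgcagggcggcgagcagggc
Dnaja1: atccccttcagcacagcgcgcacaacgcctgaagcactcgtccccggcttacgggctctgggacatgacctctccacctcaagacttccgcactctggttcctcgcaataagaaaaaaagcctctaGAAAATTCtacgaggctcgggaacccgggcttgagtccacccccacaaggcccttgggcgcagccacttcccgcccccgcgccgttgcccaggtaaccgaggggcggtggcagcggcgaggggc

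The same search for GTTGCC, the core of the element bound by RFX factors of ciliated cells, found it in 9 of 20 ciliated cell genes with a promoter (45%), against 10.5% of all promoters. Tekt1, described above, is shown at chr11:72361883-72362132 (minus strand), with 2 matches in capitals.
Tekt1: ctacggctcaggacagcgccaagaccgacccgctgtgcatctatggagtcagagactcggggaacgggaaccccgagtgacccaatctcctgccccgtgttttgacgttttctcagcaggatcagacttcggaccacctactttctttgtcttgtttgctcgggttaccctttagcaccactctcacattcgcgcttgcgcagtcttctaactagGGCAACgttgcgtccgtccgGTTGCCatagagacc

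Smooth muscle and pericyte markers were 5 higher and 6 lower of 19 (26.3% and 31.6%), near the shares over all genes. Cnn1, calponin of contractile smooth muscle, fell from 39.7 ± 7.97 to 13.4 ± 3.24, and Pdgfrb, the PDGF receptor of pericytes, rose from 47.6 ± 2.83 to 71.6 ± 3.73. Des, desmin, did not pass, 79.1, 66.4, 61.1 and 78.7 in saline and 61.2, 111, 43.3 and 46.3 in AE-PF lung, but did without AE-PF library 2 (-0.50 log2, adjusted p = 0.0156). Ion channels and transporters that clear alveolar fluid were lower for 11 of 22 and higher for 3, or 7 higher without AE-PF library 2 and 5 at equal FPKM totals. Cftr, the chloride channel, was 1.97 ± 0.207 and 0.525 ± 0.208, having passed the filter through saline lung alone, so that it had to differ, and Sgk1, a kinase that raises sodium uptake, rose, 31.1, 30.1, 33.1 and 35.1 in saline and 75.8, 90.5, 49.6 and 54 in AE-PF lung. Mesothelial markers were 2 higher and 1 lower of 8, and Msln, mesothelin, rose from 12.6 ± 5.58 to 48.9 ± 17.6.

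Growth factor ligands and their partners were 10 higher and 6 lower of 20. Ereg, an epidermal growth factor receptor ligand, was 0.235, 0.118, 0.192 and 0.326 in saline and 6.03, 6.29, 4.19 and 4.66 in AE-PF lung; it passed the filter through AE-PF lung alone and so had to differ. Igf1 rose, 5.31, 4.56, 3.11 and 3.66 in saline and 19.1, 18.2, 15.8 and 19.6 in AE-PF lung. Vegfa, which maintains capillaries and is made by type 1 cells, fell, 249.5, 301, 241 and 244 in saline and 108, 72.6, 149.9 and 162 in AE-PF lung, and Pgf, a relative of it, rose from 1.82 ± 0.357 to 9.15 ± 2.12. Pdgfb and Vegfd did not pass (0.04 ± 0.16 and 0.09 ± 0.09 log2).

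Fatty acid oxidation and lipid droplet genes were lower for 16 of 27 and higher for 2, 3 members having passed the filter through 1 group alone. Lpl, lipoprotein lipase, was a higher member, 47.4, 25.4, 28.3 and 48.8 in saline and 128, 119, 82.3 and 87.2 in AE-PF lung, and Fabp3 a lower one, 23, 14.6, 18 and 30.5 in saline and 7.28, 5.65, 5.24 and 3.96 in AE-PF lung. Many genes of this list are expressed in fat and heart, whose lists fell as given above, and their part in this count was not tested. NRF2 antioxidant genes were 8 higher and 5 lower of 19. Prdx1, a peroxidase, rose from 96.5 ± 6.91 to 139.9 ± 15.3, and Cat, catalase, fell from 122 ± 5.71 to 44.3 ± 9.38. Glucocorticoid-induced genes were higher for 9 of 18 and lower for 2. Ddit4 rose, 16, 17.2, 15.6 and 17 in saline and 74, 83.3, 40.3 and 40.7 in AE-PF lung, and Klf15 fell, 18.5, 19.6, 18.8 and 17.1 in saline and 5.64, 10.8, 5.23 and 4.1 in AE-PF lung. Nr3c1, the glucocorticoid receptor, fell from 33.7 ± 1.52 to 23.3 ± 2.5.

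Dendritic cell markers were higher for 6 of 14 and lower for 2, or 10 higher without AE-PF library 2 and 3 higher without saline library 2. Fscn1, of mature dendritic cells, rose, 5.68, 5.8, 5.37 and 5.68 in saline and 33.8, 27.1, 37.3 and 33.8 in AE-PF lung, and Cd209a fell, 14.3, 13.4, 15.5 and 14.9 in saline and 1.82, 0.629, 7.09 and 6.39 in AE-PF lung. Natural killer cell markers were lower for 2 of 9, Gzma being one of them, 13.8, 12.2, 16.7 and 15.6 in saline and 2.28, 0.77, 10.4 and 9.56 in AE-PF lung. Its adjusted p of 0.0394 became 0.0509 to 0.101 in 10 of the 18 alternatives, among them leaving out AE-PF library 1 or 2 or any saline library. Mast cell, basophil and eosinophil markers were lower for 3 of 6, and Cpa3, a mast cell protease, stood at 6.6, 5.3, 3.89 and 6.01 in saline and 2.01, 2.55, 2.77 and 2.73 in AE-PF lung.

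Endoplasmic reticulum genes were 12 higher and 10 lower of 30, or 16 and 5 at equal FPKM totals. Kdelr3, a retrieval receptor of secretory cells, rose from 8.72 ± 0.899 to 36.3 ± 8.83, while the stress genes Ddit3 and Herpud1 fell to 5.43 ± 0.73 and 46.9 ± 4.96. Nuclear-encoded respiratory chain genes were 3 higher and 3 lower of 37, or 10 higher and 0 lower at equal FPKM totals, and mitochondrially encoded genes 8 lower of 13. mt-Nd2 stood at 1574, 1331, 1396 and 1864 in saline and 681, 636, 627 and 679 in AE-PF lung. Glycolysis genes were higher for 13 of 21, with Eno1 at 36.9, 27.3, 28 and 29.1 in saline and 72.4, 85.1, 63.6 and 58.8 in AE-PF lung. Sterol and fatty acid synthesis genes were lower for 13 of 31, and 2 higher, or 9 higher without AE-PF library 2. At equal FPKM totals 10 were higher and 9 lower. Acaca, the first step of fatty acid synthesis, fell from 8.4 ± 2.08 to 4.04 ± 0.062. Clock genes were 6 higher and 9 lower of 19: Arntl (BMAL1) fell, 6.71, 7.34, 7.23 and 7.19 in saline and 3.92, 3.11, 3.53 and 3.36 in AE-PF lung, and Nr1d2 rose to 19.1 ± 4.05. Dbp, at 4.16 ± 1.46, passed the filter through AE-PF lung alone and so had to differ. The sources used here give no time of day for the sampling. Zinc and iron genes changed both ways, with Slc39a14, a zinc and iron importer, rising from 3.89 ± 0.296 to 18.1 ± 6.57 and Tfrc, the transferrin receptor, falling from 13 ± 0.657 to 7.78 ± 1.18. Egr2, an immediate early gene, rose to 13.2 ± 5.8 from 1.93 ± 0.458, and Jun fell from 94.5 ± 5.41 to 56.1 ± 6.75.

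By location in the deposited gene annotation, 79 terms with at least 100 tested genes could be read, and these were chosen after the values had been seen. Extracellular matrix had the largest share of higher genes, 101 of 157 (64.3%), followed by the large cytosolic ribosomal subunit with 80 of 164 (48.8%). The ribosomal term holds more genes than the list of 50 ribosomal protein genes above, and how many of them encode proteins was not counted. Cilium had the largest share of lower genes with 81 of 156 (51.9%). By class, long noncoding RNAs were lower for 209 of 633 (33%), near the 30.5% of all genes. They were higher for 86 (13.6%), against 27.1% of all genes. Among all genes with a mean FPKM of 1 to 3, 19.6% were higher and 30.9% lower. The part of expression level in the shares of this class was not tested.

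AE-PF libraries differed among themselves in a few ways. Over all tested genes the median SD of log2(FPKM + 1) was 0.129 in AE-PF and 0.0909 in saline, and 164 genes exceeded 1 in AE-PF against 38 in saline. Of the 10 genes with the largest spread 7 encode antibodies. The other 3 were Acta1 and Tnnt3, of skeletal muscle, and Rptn, of squamous epithelium, all highest in library 2: Acta1 stood at 6.1, 0.808, 78.2 and 4.34 in saline and 0.497, 368, 0.269 and 0.468 in AE-PF lung. The squamous list summed to 21.6 to 28.1 in AE-PF libraries 1, 3 and 4 and to 2129 in library 2, and the skeletal muscle list to 5.63 to 7.08 and 966. In saline library 3 skeletal muscle genes summed to 178. Without library 2 Tnnt3 passed (-1.59 log2, adjusted p = 0.0245), and so did Rptn (-1.02, adjusted p = 0.000152). Dmkn, an epidermal gene, behaved alike: its change was 0.07 ± 0.82 log2 with all libraries and -0.87 without library 2.

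**Figure D5:**
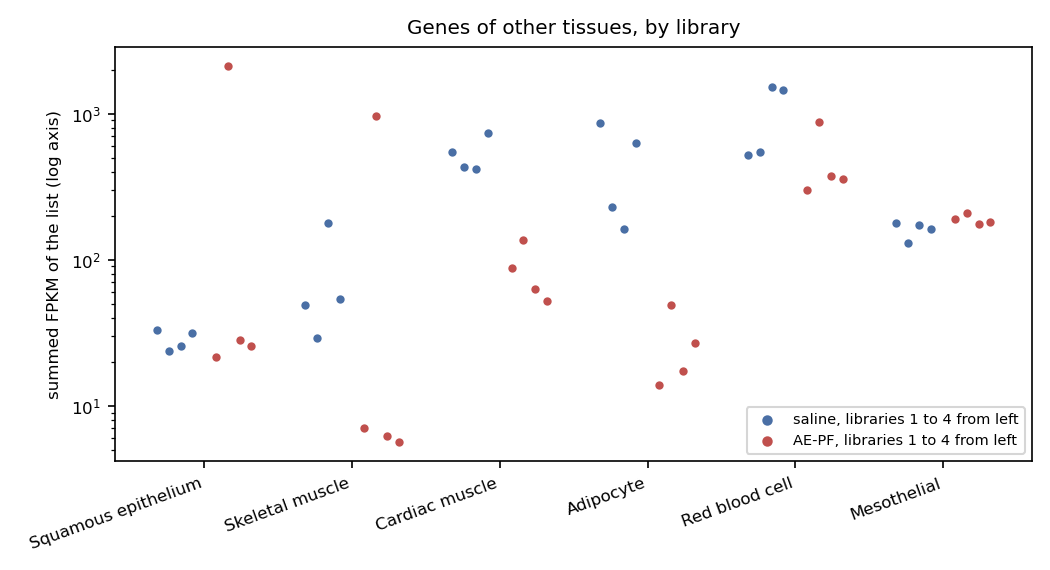
Points give the summed FPKM, on a log axis, of genes of 6 other tissues or cell types in saline libraries 1 to 4 (blue) and AE-PF libraries 1 to 4 (red). AE-PF library 2 has squamous and skeletal muscle sums of 2129 and 966, and every saline library exceeds every AE-PF library for cardiac muscle and adipocyte genes.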

How the data were processed

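Polyadenylated RNA of mouse lung was sequenced on a DNBSEQ-G400 instrument after TRIzol extraction, per the labels' protocols. The authors deposited FPKM values of 35599 genes in 12 libraries. The builds GRCm38 and mm10 stand in the submitters' processing notes, beside DESeq2 1.30.1, Subread 2.0.1 (featureCounts), STAR 2.7.9a, Trim Galore 0.6.6 and FastQC, with no role for each. The treatment of shared reads and of strand was not given in those notes or labels. Gene starts in the table are not those of GRCm38, so positions are from GENCODE M21, matched by identifier, and promoters from RefSeq.

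FPKM times gene length gave whole fragments (within 1e-05) for all 35599 genes, and so each library's depth. In a 1 kb gene, 3 fragments are an FPKM of 0.138 to 0.183, for counting error only. Groups were taken from sample titles. On log2(FPKM + 1), the 8 libraries were fitted in R 4.3.3 by limma 3.58.1 (trended variance, 2-sided). Tested on simulated data for this comparison (14579 genes), the fit found 71 of 95 genes changed 2-fold and 93 of 94 changed 4-fold, with 14 others called. The simulation used the same setting of spread for all genes and both groups and changed few genes, whereas 57.6% were called here. Its counts therefore do not carry over to these data. Alternatives were another pseudocount, other filters, other scalings, array weights, all 12 libraries, limma-voom on the recovered fragments, a replicate block and leaving out each library.

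The genes and lists described were chosen with earlier results of these data known. Named genes were the 12 largest changes and 8 smallest p each way, the 10 largest FPKM gains and losses, the 10 largest AE-PF spreads, and per list up to 4 members each way and 2 that did not pass. Adam12, Arg1, Ccnb2, Cxcl9, Krt13 and Lrrc15 were added after their values were seen, and 1 gene that the rule names is not reported here.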

Additional observations from a re-analysis of the deposited data

Results flagged for a closer look

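Among 155 genes named in the text, each with 2 groups of 4 libraries, 17 libraries lay far from the other 3 of their group (by Dixon's criterion at 95%), and chance gives about 1 in 20 groups. AE-PF library 2 was the outlying library for Krt13 (FPKM 899), Acta1 (368), C1qa (352), Tnnt3 (135), Saa3 (101), Dmkn (89), Rptn (77.8) and Inhba (11.1), in each of which it was the highest, and for Atp6v0d2 (19.4), in which it was the lowest. Tppp3 was highest in AE-PF library 4 (45.7). In saline lung, library 3 was highest for Lyz2 (4465), Acta1 (78.2) and Tnnt3 (21.3), library 1 for Acaca (11.5) and library 2 for Vegfa (301). Library 4 was lowest for Vwf (29.4) and Ccnb2 (1.32).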

How the results depend on the processing

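With all genes that reached FPKM 5 in 4 libraries (8796 tested), 5482 genes changed, 2775 of them lower, and 997 changed at least 2-fold, as fewer genes were tested. The 2-fold count was 2255 with a pseudocount of 0.1 and 2302 with limma-voom, neither of which damps the change of low genes as a pseudocount of 1 does. Leaving out 1 library gave 7368 to 8455 changed genes, 3525 to 4082 higher, 3771 to 4424 lower and 1378 to 1599 changed at least 2-fold. Of 130 named genes that were called, 126 kept the call in each of the 18 alternatives in which they were tested, and Gzma, Ighg2b, Scgb1a1 and Sftpc did not. Signs turned, by log2 change, for genes that did not pass. With array weights these were Acta2 (-0.15), Dcn (-0.21), Dmkn (-0.73), Lyz2 (0.14), Ms4a4c (0.07), Rptn (-0.79) and Timp3 (0.04), and with quantile normalisation Dcn (-0.08), Dpt (-0.02), Lyz2 (0.44), Pdgfb (-0.02) and Serpinh1 (-0.02). Timp3 turned with equal FPKM totals (0.13), and Rptn with a pseudocount of 0.1 (-0.68) and limma-voom (-1.35). Leaving out 1 library gave -2.61 to 0.47 for Acta1, -0.09 to 0.32 for Acta2, -0.14 to 0.72 for Cd74, -0.12 to 0.13 for Dcn, -0.87 to 0.45 for Dmkn, -0.32 to 0.06 for Lyz2, -0.06 to 0.19 for Pdgfb, -1.02 to 1.05 for Rptn, -0.02 to 0.09 for Serpinh1, -0.03 to 0.03 for Timp3 and -1.59 to 0.4 for Tnnt3. Without AE-PF library 2 the limma adjusted p was 0.00404 for Dmkn (-0.87) and 0.000152 for Rptn (-1.02). The cause of these turns was not tested. The medians of 6 lists changed sign under some scaling (Wnt, interferon-stimulated, MHC class I, smooth muscle, nuclear respiratory chain and endoplasmic reticulum genes), all of them near 0. Replicate numbers gave no sign of pairing, since same-numbered deviations correlated at 0.0829, -0.186, 0.0838 and -0.104, and the fit with the replicate block called 7625 genes (3623 higher, 4002 lower, 1489 at least 2-fold).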
